A study of Rattus norvegicus with 18 samples.

Results

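The interval between 1 h and 2.5 h after 4-hydroxytamoxifen (4OHT) was examined in rat hippocampal neurons that expressed MEF2-VP16-ER. The 6 arrays whose labels give this construct and these times were taken, 3 at 1 h and 3 at 2.5 h, out of 18 arrays in all. They were compared within replicate numbers on log2 of the deposited intensity plus 16. The dissociated cultures received lentivirus on day 3 in vitro and 4OHT on day 10, so every group here carries a transduced construct. Control neurons expressed MEF2deltaDBD-VP16-ER and received 4OHT for the same times, with 3 replicates, labelled biological, in each of the 6 groups of construct and time (0 h, 1 h and 2.5 h). The labels do not name the promoter of the lentivirus, its transduced share, the age or strain of the animals, the MEF2 family member in the fusion, or what the replicates share. The p-values therefore measure only the spread between these cultures.

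MEF2 proteins are transcription factors that bind an AT-rich element and, in neurons, couple calcium entry at active synapses to gene expression. In hippocampal neurons they are known for restricting the number of excitatory synapses and for driving activity-regulated genes. A fusion to the viral VP16 activation domain and to a modified estrogen receptor ligand-binding domain activates MEF2 sites when 4OHT is added, without a need for synaptic activity, and the control fusion is named for its missing DNA-binding domain.

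Array medians of the 6 arrays ran from 192 to 196 intensity units, and those of all 18 from 190 to 197. Any scaling before deposition is not described and would even out the medians. They therefore cannot show whether an array had been brighter or dimmer. The 5′ over 3′ intensity ratio of the beta-actin control probe sets ran from 0.361 to 0.525 at 1 h and from 0.398 to 0.451 at 2.5 h, and these ranges overlapped. The cultures held neurons and glia: summed intensities of 10 neuronal marker genes ran from 63526 to 63934 at 1 h and from 64761 to 67271 at 2.5 h, and those of 11 astrocyte genes from 42228 to 60217 and from 43330 to 55345. Of the 85 measured genes on the 8 marker lists (excitatory, inhibitory and general neuronal, astrocyte, oligodendrocyte, microglial, fibroblast and endothelial), only the excitatory genes Neurod2 and Neurod6 passed the test, both lower. Of all 14217 genes with 1 probe set each, 1.2% were called higher and 0.556% lower, and these shares were not compared by a test. In bulk RNA, fewer cells of a type and less RNA per cell cannot be told apart.

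More probe sets rose than fell between 1 h and 2.5 h. A step was called where its Benjamini-Hochberg adjusted p, in a limma fit of all 18 arrays with the replicate number as a block, was under 0.05. Of 31042 probe sets, 399 (1.29%) were called: 268 (0.863%) were higher at 2.5 h and 131 (0.422%) were lower. They stood for 183 and 88 named genes, besides 71 and 29 probe sets with no single gene symbol. The median called rise was 0.45 on the log2 scale and the median called fall was -0.43, whereas the median over all probe sets was 0.0090. Rises of at least 2-fold were seen for 13 probe sets and falls of that size for 3. All 268 and all 131 moved the same way in every replicate number, against 17.5% of all probe sets that rose and 12.5% that fell in all 3. The 2.5 h arrays lay wholly above the 1 h arrays for 226 of the 268 (5.54% of all probe sets did so) and wholly below for 99 of the 131 (4.19%). The calls were made on these same arrays with the replicate block, so both kinds of agreement are favoured by the selection and are not separate support. Probe sets of a gene did not always move together: of 150 called genes with several, 111 had late steps of one sign throughout, 12 had every probe set called, and none was called in both directions. Single arrays moved these counts: without 1 h replicate 1, 2 or 3 the calls numbered 251, 238 and 220, and without 2.5 h replicate 3 they numbered 184, against 399 with every array. Without the replicate block 88 calls were made. With only these 6 arrays in the fit, paired by replicate number, 19 probe sets were called higher and 9 lower. Of the 68 called genes named in this report, 55 lost their call in that fit.

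The control neurons moved little over the same interval. There 3 probe sets (0.00966%) were called, all lower, and 1499 had an unadjusted p under 0.05, against 3055 in MEF2-VP16-ER neurons. The 3 were those of Hs3st1, of the chemokine gene Cxcl12 (-0.61) and of the neuropeptide gene Adcyap1 (-0.55). The difference between the 2 late steps was itself called for 124 probe sets, 104 of them higher (0.335%) and 20 lower (0.0644%) in MEF2-VP16-ER neurons. Among the 268 rises, 99 had a control step of the same sign (36.9%, against 45.3% of all probe sets) and the difference was called for 96. Among the 131 falls, 103 also leaned downwards in control neurons (78.6%, against 54.7%), with a median control step of -0.097, and the difference was called for 19. That gave 35.8% of the rises and 14.5% of the falls with a called difference, shares that were not themselves compared by a test.

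**Figure D1:**
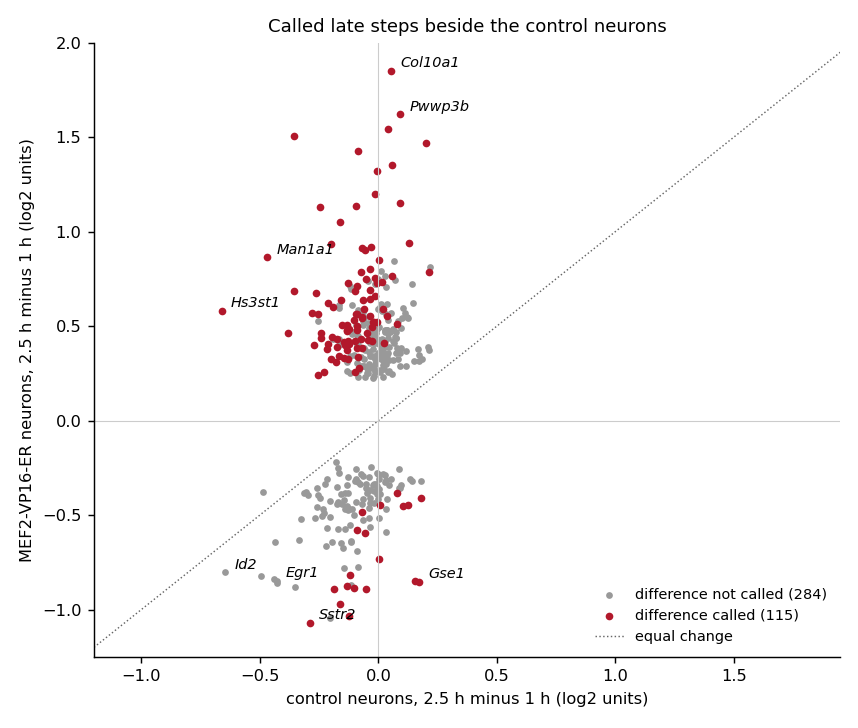
Each point is 1 of the 399 probe sets called between 1 h and 2.5 h in MEF2-VP16-ER neurons, with its change on the vertical axis and the change of the same probe set in control neurons on the horizontal axis, both in log2 units. Red points (115) had a called difference between constructs, grey points (284) did not, and the dotted line marks equal change. The rises gather around 0 on the control axis, while many falls lie to its left.

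The probe sets were sorted by their calls in the early step (0 h to 1 h) and the late step (1 h to 2.5 h). Both steps use the 1 h arrays, so a 1 h value that is low by chance favours an early fall with a late rise, and no test of overlap was made. The early step had called 48 probe sets higher (0.155%) and 10 lower (0.0322%). Of the 48, 7 kept rising, 40 had no called late step and 1 fell. Most called late steps had no called early step: 261 probe sets (178 genes) rose only after 1 h by this rule and 126 (84 genes) began to fall. Another 4 kept falling after an early fall, 6 fell early only, and none fell and then rose. The median early step of the 261 late risers was 0.00019, and 131 of them had a positive one. Over the whole 2.5 h, a contrast that does not use the 1 h arrays, 208 of the 261 and 108 of the 126 were also called (of all probe sets, 1.33% were called higher and 0.999% lower over the whole 2.5 h). That contrast shares the 2.5 h arrays with the late step, so the overlap is favoured by the design and is not independent support.

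**Figure D2:**
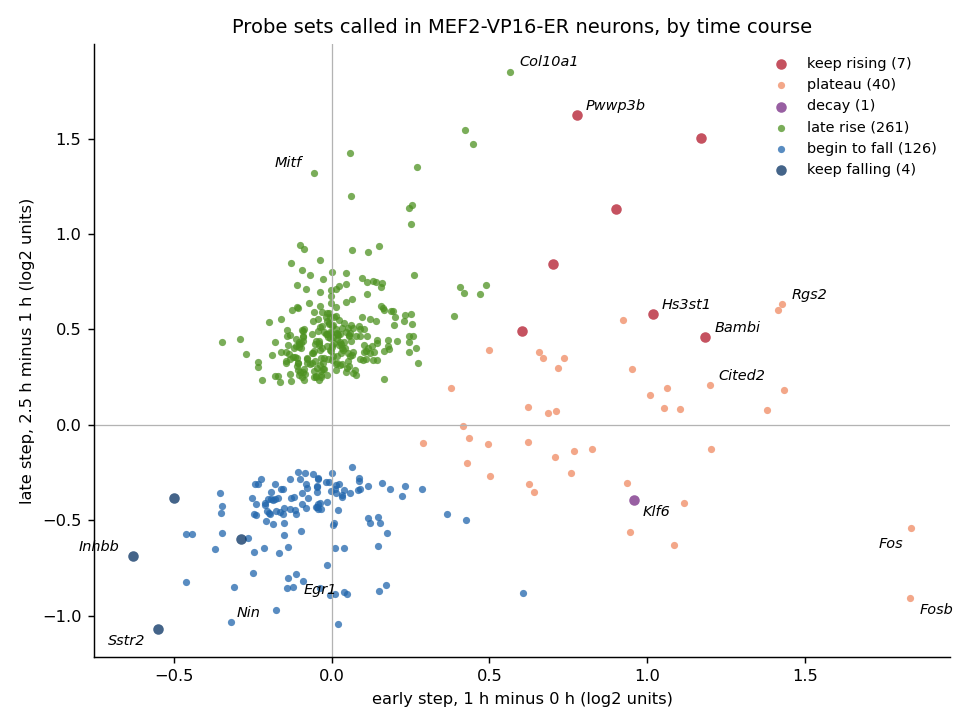
The early step (1 h minus 0 h, horizontal) is set against the late step (2.5 h minus 1 h, vertical) for the 439 probe sets of 6 time-course classes in MEF2-VP16-ER neurons, in log2 units; the 6 that fell early only are left out. The 2 axes share the 1 h arrays. The cloud of late risers sits around an early step of 0, Fos and Fosb stand far to the right with negative late steps, and the 7 probe sets that kept rising lie at the upper right.

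Genes that kept rising were few and came from different families. Pwwp3b, which encodes a PWWP-domain protein, read 217, 178 and 160 intensity units at 1 h in replicates 1, 2 and 3 and 761, 538 and 523 at 2.5 h. All 2.5 h arrays lay above all 1 h arrays. The late step was 1.62 ± 0.11 (SE, limma adjusted p = 3.35e-06), after an early step of 0.78. Per hour this came to 0.78 early and 1.08 late. Fgl2, a fibrinogen-like protein of immune regulation, read 498, 234 and 163 at 1 h and 868, 573 and 447 at 2.5 h. The groups overlapped because replicate 1 was the highest at both times, yet every replicate number rose, by 1.13 ± 0.12 (adjusted p = 8.21e-05). Of its 4 probe sets 3 were called in the late step and 2 in both steps. Gbx2, a homeobox transcription factor, went from 143, 185 and 188 to 321, 338 and 300, a step of 0.84 ± 0.12 (adjusted p = 0.00129) with no overlap between the times. Its second probe set had 0.13 without a call.

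The late estimate per hour was below the early one for the other 5 genes that kept rising, a difference that was not tested: 0.75 after 0.90 for Fgl2, 0.56 after 0.70 for Gbx2, 0.39 after 1.02 for Hs3st1, 0.31 after 1.18 for Bambi and 0.33 after 0.60 for Rnf122. Hs3st1, a heparan sulfate sulfotransferase, read 1209, 905 and 1010 at 1 h and 1576, 1449 and 1642 at 2.5 h. In control neurons the same probe set went down from 485, 416 and 424 to 323, 281 and 223. The late step was 0.58 ± 0.095 (limma adjusted p = 0.00471) with the active construct against -0.66 with the control construct, and the difference was 1.24 (adjusted p = 0.00043). Its early step was 1.02. Bambi, a pseudoreceptor that dampens TGF-beta and activin signals, went from 424, 318 and 393 to 563, 473 and 537, again without overlap, a late step of 0.46 ± 0.10 (adjusted p = 0.0324) after an early one of 1.18. Rnf122, a ring finger ubiquitin ligase, rose by 0.49 ± 0.09 (adjusted p = 0.00999) after 0.60. The late calls of Bambi and Rnf122 were both lost without 1 h replicate 2 and without 2.5 h replicate 3, and that of Bambi also without 2.5 h replicate 1 or 1 h replicate 3. Over all settings and leave-out fits their late steps ran from 0.34 to 0.53 for Bambi and from 0.39 to 0.59 for Rnf122. Without the replicate block the calls of Fgl2 (adjusted p = 0.597), Bambi (0.140), Rnf122 (0.114) and Hs3st1 (0.05005) were lost. The call of Hs3st1 was also lost without replicate 2 and without replicate 3.

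Most probe sets that had risen by 1 h had no called late step. These 40 stood for 28 genes and had a median early step of 0.76 and a median late step of 0.029, with 20 positive and 20 negative. An uncalled step does not show that a level held, so intervals were read instead: for 22 of the 40 the 95% interval of the late step lay within ±0.5. In control neurons the same probe sets had a median early step of 0.045 and a median late step of -0.16.

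Nr4a1, an orphan nuclear receptor and classic immediate early gene, read 1728, 1551 and 1418 at 1 h and 1997, 1609 and 1641 at 2.5 h. Its late interval ran from -0.07 to 0.38 after an early step of 1.01. Cited2, a transcriptional co-regulator, went from 3701, 3434 and 3406 to 4290, 3796 and 4100; the late step of 0.21 was not called (limma adjusted p = 0.489) although every 2.5 h array lay above every 1 h array. Nfil3, a bZIP repressor, Spry1, an inhibitor of growth factor signalling to Ras-MAPK, and Adamts1, a secreted metalloprotease, had late steps of 0.08, 0.09 and 0.08 after early steps of 1.10, 1.05 and 1.38. Bdnf, a neurotrophin that is itself regulated by activity, stood at 1538, 1416 and 968 at 1 h and at 1844, 1636 and 1297 at 2.5 h. Each replicate number was higher at 2.5 h, but the groups overlapped and the step of 0.29 was not called (adjusted p = 0.401).

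Within the plateau the members leaned in both directions. For 11 probe sets the unadjusted 95% interval lay above 0, and these included both probe sets of Rgs2 and that of Rgs3, GTPase activators that shorten signalling by G protein-coupled receptors. Rgs2 read 2325, 1928 and 3358 at 1 h and 3290, 3518 and 4886 at 2.5 h, a late step of 0.63 ± 0.17 (limma adjusted p = 0.113). Rgs16, of the same family, had 0.19 with an interval from -0.15 to 0.53. Kcna4, a voltage-gated potassium channel subunit, was the one plateau probe set whose late step differed from the control with a call, by 0.78 (adjusted p = 0.007565): it moved by 0.30 with the active construct and by -0.49 with the control construct.

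For 10 plateau probe sets the interval lay below 0. Fosb, an AP-1 subunit, read 571, 412 and 186 at 1 h and 315, 165 and 113 at 2.5 h. Every replicate number was lower at 2.5 h and the groups overlapped; the step of -0.91 ± 0.23 missed the threshold (limma adjusted p = 0.0795). Fos, its better known relative, went from 4031, 3351 and 2579 to 2571, 2276 and 1920, with all 2.5 h arrays below all 1 h arrays. Its step of -0.54 ± 0.34 had an adjusted p of 0.678 and an interval from -1.27 to 0.19. In control neurons Fos moved by 1.17 in the early step and by -0.94 in the late step, and the late difference between constructs was 0.40 with an interval from -0.63 to 1.43. Ccn1, a matricellular protein, had -0.41 and the nuclear receptor gene Nr4a2 had -0.25 in the late step, neither called.

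Klf6, a zinc finger transcription factor, was the only probe set that rose early and was then called lower. It read 1536, 1655 and 1570 at 0 h, 3296, 3153 and 2859 at 1 h and 2642, 2371 and 2076 at 2.5 h. All 2.5 h arrays lay below all 1 h arrays and above all 0 h arrays. The late step was -0.39 ± 0.085 (limma adjusted p = 0.0307) against an early step of 0.96, and in control neurons it was -0.30. The other 2 probe sets of Klf6 had late steps of -0.31 and -0.63 without a call. Leaving out any single array other than 2.5 h replicate 1 ended the call, with late steps from -0.47 to -0.35 over all leave-out fits and settings.

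**Figure D3:**
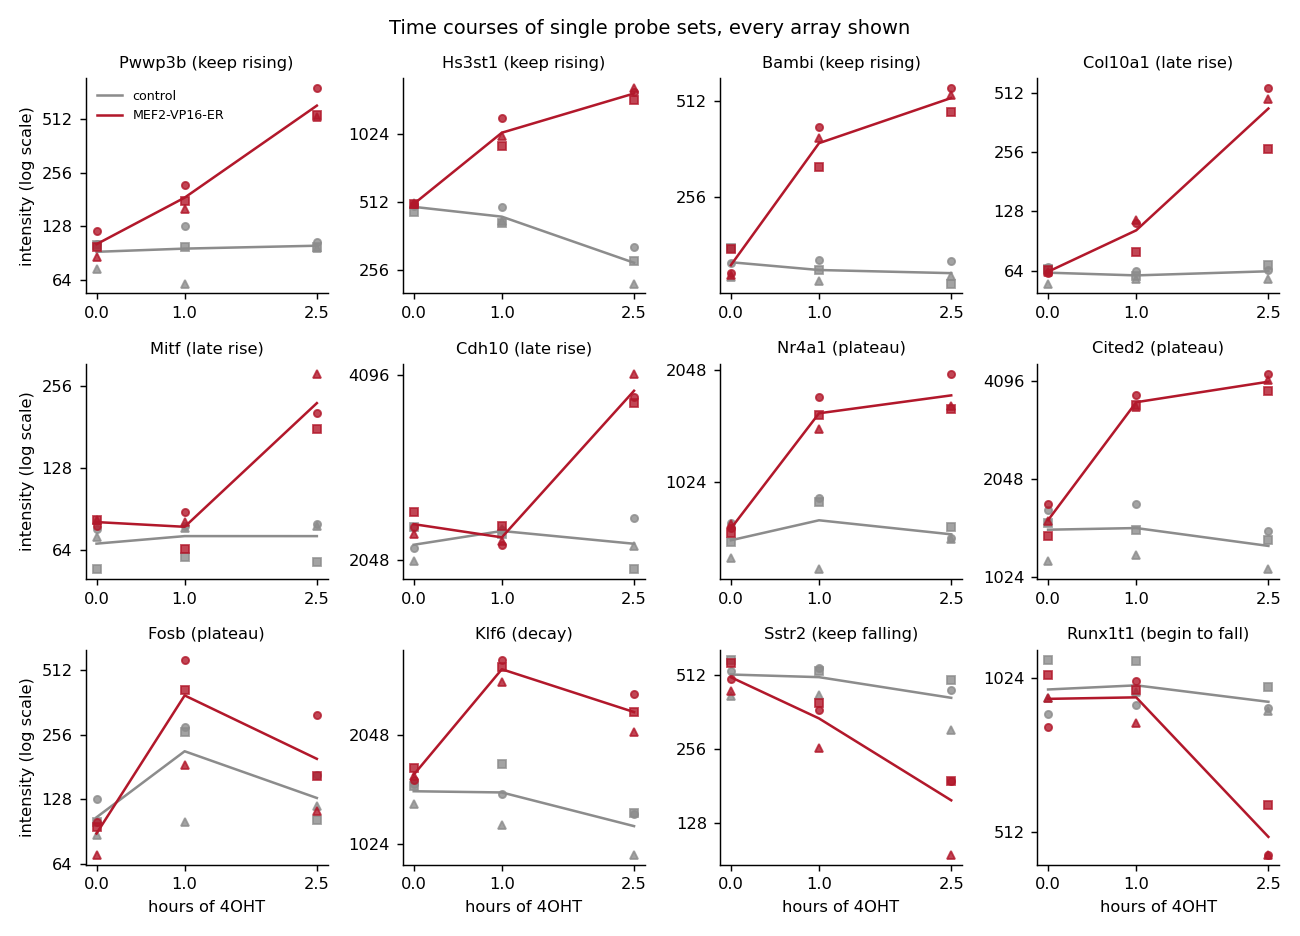
Every array is shown for 12 genes against hours of 4OHT (horizontal), with intensity on a log scale (vertical). Red is MEF2-VP16-ER and grey is control, circles, squares and triangles are replicates 1, 2 and 3, and lines join the group means. Pwwp3b climbs in both steps, Mitf and Cdh10 stay near their 0 h levels until 1 h, Nr4a1 and Cited2 flatten, Fosb and Klf6 turn down, and Sstr2 goes down throughout.

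The largest late step was that of Col10a1, whose early step was not called. Col10a1, the collagen X chain best known from hypertrophic cartilage, read 112, 79.3 and 116 at 1 h and 539, 264 and 473 at 2.5 h, with no overlap. That was a 3.6-fold rise (1.85 ± 0.16, limma adjusted p = 2.03e-05), while the control arrays stayed between 58 and 68 at both times. Its early step was 0.56. Ptpn21, a tyrosine phosphatase with a FERM domain, rose 2.92-fold from 239, 169 and 246 to 681, 445 and 939. Opn3, a non-visual opsin, rose 2.77-fold from 141, 138 and 131 to 326, 388 and 530. Both were separated from 1 h in every array, with early steps of 0.42 and 0.45 that were not called.

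Mitf and Cdh10 had early steps of -0.06 and -0.07. Mitf, a basic helix-loop-helix factor of melanocytes and osteoclasts, read 88.1, 64.4 and 81.3 at 1 h against 78.1, 82.3 and 82.9 at 0 h, and then 204, 178 and 283 at 2.5 h. The late step was 1.32 ± 0.099 (limma adjusted p = 6.42e-06), and 0.00 in control neurons with an interval from -0.21 to 0.21. The second Mitf probe set had 0.34 without a call. Cdh10, a classical cadherin of neurons, went from 2168, 2329 and 2202 to 3778, 3697 and 4114. Every 2.5 h array stood far above every 1 h array, a step of 0.79 ± 0.071 (adjusted p = 2.49e-05). Mat2b, the regulatory subunit of methionine adenosyltransferase, rose 1.87-fold from 2179, 2124 and 1779 to 4487, 3424 and 3547. Man1a1, a Golgi mannosidase of N-glycan trimming, rose by 0.86 ± 0.083 (adjusted p = 3.66e-05) while it moved by -0.47 in control neurons.

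The other leading late risers were of mixed kinds. Synpo2, an actin-binding protein of muscle Z-discs, rose by 1.20, but more in replicate 3 (92.7 to 415) than in replicates 1 (112 to 201) and 2 (115 to 219). Only 1 of the 4 probe sets of Synpo2 was called, and the lowest had 0.076. Svil (supervillin, an actin and myosin II binding protein) rose by 0.81 on 1 of its 5 probe sets, of which the lowest had -0.072, and Dhrs7c, a dehydrogenase of the muscle sarcoplasmic reticulum, by 0.79. Gask1b, a Golgi-associated kinase-like protein, rose by 1.15, Mlf1 by 0.91 and Hspb1, a small heat shock protein that binds actin and misfolded proteins, by 1.13. The second probe set of Gask1b had 0.21 without a call. The 3 Hspb1 cultures started far apart, at 558, 343 and 189, and each stood higher at 2.5 h, at 1118, 654 and 571. Without the replicate block the calls of Hspb1 (adjusted p = 0.922), Svil (0.414), Man1a1 (0.229) and Dhrs7c (0.0603) were lost.

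Falls were fewer and smaller, and the largest was that of Sstr2. Sstr2, an inhibitory somatostatin receptor, read 493, 570 and 438 at 0 h, 369, 394 and 257 at 1 h and 190, 189 and 94.4 at 2.5 h. Each time was lower than the one before it in every replicate number, and the late step of -1.07 ± 0.10 (limma adjusted p = 3.12e-05) exceeded the control's -0.29. Inhbb, the inhibin and activin beta B subunit, kept falling too, from 380, 438 and 473 to 174, 312 and 322, a late step of -0.69 ± 0.093 (adjusted p = 0.00096) after -0.63. Irf2bpl, a nuclear protein, went from 3830, 3792 and 3143 to 2347, 2718 and 2058 with no overlap, a step of -0.60 ± 0.055, the only call among its 3 probe sets, of which the highest had -0.0058. Mycn, a growth-promoting transcription factor, completed the 4 that kept falling with -0.39, but it moved by -0.31 in control neurons and its call was lost without 2.5 h replicate 3.

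Runx1t1, a transcriptional corepressor, began to fall on all of its 4 probe sets, with late steps from -1.05 to -0.87. The probe set with the smallest adjusted p read 1010, 972 and 838 at 1 h and 463, 580 and 464 at 2.5 h, against 821, 1041 and 938 at 0 h. Only the 2.5 h arrays were low. Nin, which encodes the centrosomal microtubule anchor ninein, went from 328, 363 and 291 to 152, 189 and 139, a step of -0.97 ± 0.075 (limma adjusted p = 6.42e-06). Gse1 went from 558, 556 and 544 to 266, 334 and 299, a step of -0.85, and its control step was 0.17. Of its 3 probe sets 2 were called, and the highest late step among them was 0.020. Ntf3, a neurotrophin, fell by 0.67 on the log2 scale, and Klhl25, a Kelch adaptor of ubiquitin ligases, fell by 0.65. Spns2, a sphingosine 1-phosphate exporter, and Fam43b each fell by 0.45 where the control neurons moved by 0.13 and 0.10. The call of Fam43b was lost without 2.5 h replicate 3.

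Other falls had a sizeable counterpart in control neurons. Egr1, the zinc finger immediate early factor, read 3101, 2350 and 1154 at 1 h and 1688, 1401 and 595 at 2.5 h. Each replicate number was lower, the groups overlapped, and the step was -0.85 ± 0.12 (limma adjusted p = 0.00156), against -0.43 in control neurons. Id2, an inhibitor of basic helix-loop-helix factors, had -0.80 against a control -0.65, Cxcr4, the receptor of Cxcl12, had -0.82 against -0.50, St3gal1, a sialyltransferase, had -0.86 against -0.43, and Lrig3, a leucine-rich membrane protein, had -0.64 against -0.44. For none of these 5 was the difference between constructs called, with adjusted p from 0.19 for St3gal1 to 0.87 for Id2. Kcnk1, a background potassium channel, had -0.67 against -0.22. Atrx, a chromatin remodeller, went from 243, 123 and 124 to 89.1, 72.5 and 71, after an uncalled early rise of 0.61 that was estimated from the same 1 h arrays. Its call was lost without 1 h replicate 1 or 2.5 h replicate 3, and of its 6 probe sets only this one was called, with the others reaching 0.11. St3gal1 was called on 1 of its 3 probe sets, of which the highest had -0.16. The second probe set of Lrig3 had 0.011. That of Id2, the brighter of its 2, had -0.30 without a call, against a control -0.36. The call of Gem, a small GTPase (-0.63), was lost without any of 5 of the 6 arrays, the exception being 1 h replicate 3. Without the replicate block the calls of Egr1 (adjusted p = 0.999), Inhbb (0.729), Ntf3 (0.301), Id2 (0.195), Klhl25 (0.189), Sstr2 (0.102), Cxcr4 (0.0748), Irf2bpl (0.0542), Gem (0.999), Mycn (0.838), Fam43b (0.597), Atrx (0.223) and Spns2 (0.102) were lost.

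Among the endogenous MEF2 genes only Mef2a passed the test. All 7 measured genes of the list of MEF2 family members and class IIa deacetylases, their corepressors, had a positive late step, as did 8240 of all 14217 genes, with a median of 0.17 against 0.017 over all genes, and 1 was called higher (1.2% of all genes with 1 probe set each). That one was Mef2a, which read 2051, 1731 and 1563 at 1 h and 2613, 2229 and 2358 at 2.5 h. All 2.5 h arrays were the higher, by 0.43 ± 0.071 (limma adjusted p = 0.0046), and 2 of its 4 probe sets were called. Mef2c had 0.25 (adjusted p = 0.0899), Mef2d 0.10 (0.675) and Mef2b 0.0035 (0.996), and the other 3 genes of the list were deacetylases. Whether these probe sets also read RNA of the construct was not tested. Without replicate 3, or without the replicate block (adjusted p = 0.471), the call of Mef2a was lost.

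Promoter sequence was read from RefSeq for 3 of these genes, chosen because each holds a match to a motif bound by an activity-regulated factor and each moved differently: Mef2a rose late, Klf6 rose and turned down, and Egr1 fell. The 250 bases before each annotated start are given on the gene's strand in build GRCr8, with motif matches in capitals.
Mef2a, chr1:130392163-130392412, minus strand: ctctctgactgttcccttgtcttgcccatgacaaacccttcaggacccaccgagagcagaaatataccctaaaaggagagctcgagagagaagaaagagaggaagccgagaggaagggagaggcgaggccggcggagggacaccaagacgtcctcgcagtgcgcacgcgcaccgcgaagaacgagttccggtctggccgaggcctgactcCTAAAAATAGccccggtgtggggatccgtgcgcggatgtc
Klf6, chr17:69458479-69458728, minus strand: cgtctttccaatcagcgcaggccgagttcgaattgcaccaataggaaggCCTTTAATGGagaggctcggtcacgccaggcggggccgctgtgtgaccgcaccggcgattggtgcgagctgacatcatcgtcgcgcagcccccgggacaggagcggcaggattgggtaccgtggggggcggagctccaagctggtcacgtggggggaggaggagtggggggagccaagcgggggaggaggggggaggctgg
Egr1, chr18:26736828-26737077, plus strand: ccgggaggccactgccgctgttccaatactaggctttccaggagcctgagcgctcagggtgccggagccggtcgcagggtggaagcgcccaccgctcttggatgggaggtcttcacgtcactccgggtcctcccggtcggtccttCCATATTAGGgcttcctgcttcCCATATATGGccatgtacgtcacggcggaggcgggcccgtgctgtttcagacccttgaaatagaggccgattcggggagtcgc

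The capitals mark a MEF2 element in Mef2a, 40 to 31 bases before the start, a CArG box (the site of serum response factor) in Klf6, 201 to 192 bases before it, and 2 CArG boxes in Egr1. The search covered 300 bases per gene (250 before the start and 50 after), on both strands, for the MEF2 element, the CArG box, the cyclic AMP response element TGACGTCA, the AP-1 site TGANTCA, the NR4A site AAAGGTCA and the estrogen response element GGTCANNNTGACC. A MEF2 element was found in 4 of 149 matched promoters of late risers (2.68%), in none of 28 promoters of early risers and in none of 67 promoters of genes that fell, against 1.71% of 11701 promoters of genes on the array and 3.37% of all 27457 promoters in the table. CArG boxes were in 2 of the 28 early risers (7.14%, Klf6 and Zfp36), in 1.34% of late risers and in 2.99% of falls, against 1.35% of genes on the array. The cyclic AMP element was in 3.36% of late risers and 4.48% of falls (2.85% on the array), and the AP-1 site in 4.03% and 4.48% (5.43% on the array). No NR4A site or estrogen response element was found in these 3 classes, and on the array they were in 1.05% and 0.0171% of promoters. A match describes the letters in this window and is not evidence of binding.

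Guidance and adhesion molecules of the neuronal surface rose late in small numbers. All gene lists here were written with earlier results of these data known, so a share above the background is not separate support. Of 36 measured axon guidance genes, 4 were called higher and 1 lower (background 1.2% and 0.556% of genes), and the list's median of 0.022 was close to that of all genes, 0.017. Sema6a, a transmembrane semaphorin, read 871, 754 and 877 at 1 h and 1316, 1270 and 1332 at 2.5 h. Of its 5 probe sets 3 were called, and the lowest had 0.031. Epha3, an ephrin receptor kinase with 2 of 3 probe sets called and a lowest late step of -0.037 among them, went from 443, 397 and 370 to 640, 590 and 581. Neither overlapped between times; the steps were 0.64 ± 0.051 and 0.57 ± 0.054 (limma adjusted p = 8.82e-06 and 3.66e-05), and both differed from control neurons, by 0.70 and 0.66. Epha7 (0.45) and Sema3e (0.40) were the other called rises, and the ephrin Efnb1 (-0.34) the called fall. Of 18 cadherins and protocadherins 3 were called higher (background 1.2%) and none lower, with 15 positive and a median of 0.074: Cdh10, described above, Pcdh10, a protocadherin that promotes synapse elimination downstream of MEF2 in mouse neurons (0.54, adjusted p = 0.0419), and Pcdh17 (0.34).

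Heparan sulfate synthesis gave 3 calls among 18 measured genes, all higher (1.2% of all genes were), with a list median of 0.041. Besides Hs3st1 these were Ext1, a polymerase of the heparan sulfate chain, which went from 1032, 881 and 797 to 1258, 1177 and 1190, and Hs3st5, another sulfotransferase (0.46, with -0.027 on its second probe set). All 2.5 h arrays of Ext1 lay above its 1 h arrays, a step of 0.42 ± 0.067 (limma adjusted p = 0.00343). Among 26 genes of TGF-beta, activin and BMP signalling, 3 were called higher and 2 lower (1.2% and 0.556% of all genes were), and the median was -0.034. The activin subunits went opposite ways, with Inhba at 212, 228 and 166 rising to 300, 305 and 397 (0.69 ± 0.14, adjusted p = 0.0222; the gene's second probe set had 0.00050) and Inhbb falling as given above. Bmp2, a bone morphogenetic protein, fell by 0.50 after an early estimate of 0.42, which left a whole change of -0.07. The others were Bambi and the receptor kinase gene Tgfbr1 (0.42, with -0.014 on its second probe set).

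**Figure D4:**
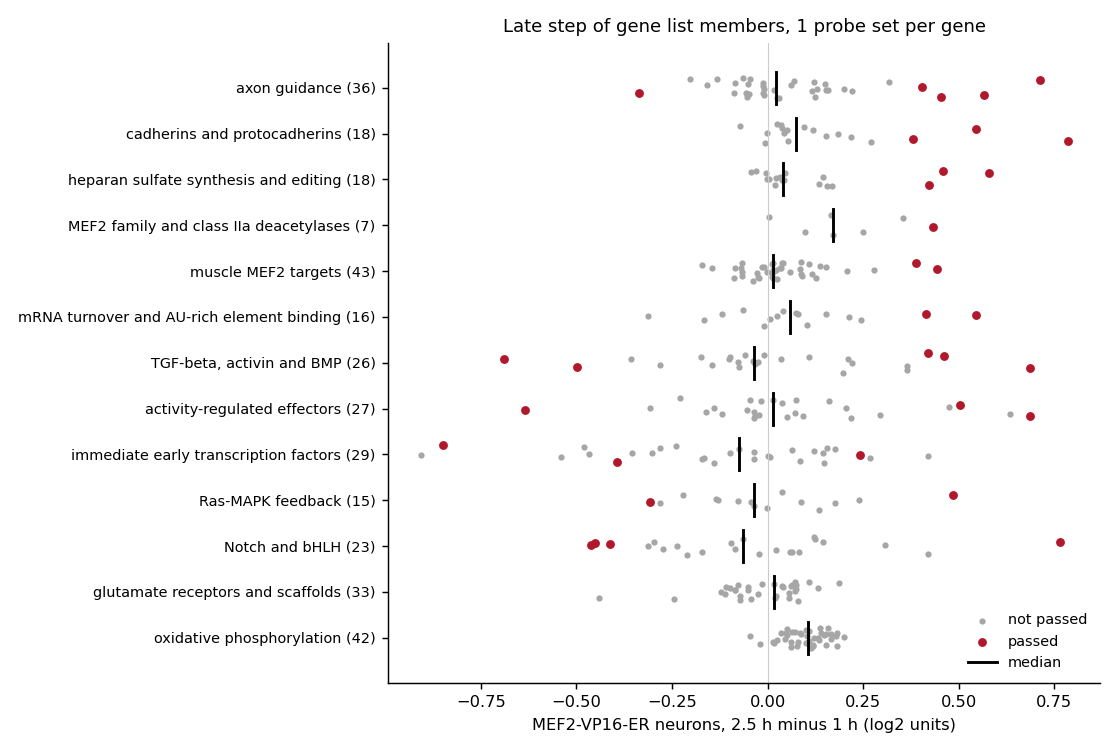
Points are measured genes of 13 lists (number measured in brackets), 1 probe set each with the highest mean level, placed by the change from 1 h to 2.5 h in MEF2-VP16-ER neurons in log2 units. Red points passed the test, grey points did not, and black bars are list medians. Most points of every list lie close to 0, red points lie on both sides in 6 lists, and the oxidative phosphorylation genes form a narrow group above 0 with none called.

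Regulators of transcription and RNA gave a few calls per list, against a background of 1.2% of all genes called higher and 0.556% lower. Numb, an endocytic adaptor that opposes Notch, read 481, 456 and 484 at 1 h and 761, 798 and 892 at 2.5 h, a step of 0.76 ± 0.067 (limma adjusted p = 1.91e-05) with no overlap. In the same list of 23 Notch and basic helix-loop-helix genes 3 were called lower: Neurod2 (-0.41), Neurod6 (-0.45) and Bhlhe41 (-0.46). With any probe set counted they were 4, as Id2 was called only on its dimmer probe set. Neurod2 and Neurod6 are factors of excitatory forebrain neurons and belong to that marker list too. Neurod6 alone averaged 7611 at 1 h and 5556 at 2.5 h within a list sum of 12809 to 15503 at 1 h and 9883 to 12909 at 2.5 h, a sum that includes both genes. The other 6 excitatory markers were not called, with late steps of -0.038 for Slc17a7, 0.024 for Slc17a6, 0.071 for Camk2a, 0.030 for Prox1, -0.17 for Nrgn and -0.22 for Tbr1. The part of a change in cell makeup in these 2 falls was not tested. Elavl2, a neuronal RNA-binding protein, went from 2244, 2184 and 2371 to 3047, 3298 and 3619 (0.55 ± 0.061, adjusted p = 0.00018). Only 1 of its 3 probe sets was called, and the lowest had 0.14. With Cnot6l, a deadenylase (0.41, with -0.030 on its second probe set), Elavl2 made 2 calls among 16 genes of mRNA turnover. Dusp14 (0.48) was called higher and Dusp6 (-0.31) lower among 15 genes of Ras-MAPK feedback. Kcnk2, a mechanosensitive background potassium channel, rose by 0.41 (-0.0067 on its second probe set) and Kcnk1 fell, the 2 calls among 32 potassium channel genes with 1 probe set each. With any probe set counted, 2 of them were called higher. The second was Kcnj3, called on 1 of its 3 probe sets, which ran from -0.086 to 0.32.

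Activity-regulated genes moved in both directions, and the counts here stand against the same 1.2% of all genes called higher and 0.556% lower. Of 29 immediate early transcription factor genes 1 was called higher (Nr4a3, 0.24) and 2 lower (Egr1 and Klf6). Only 1 of the 3 probe sets of Nr4a3 was called, and the lowest had -0.034. The list had 12 positive and 17 negative late steps and a median of -0.074, and in control neurons the median was -0.13. Of 27 activity-regulated effectors Inhba and Rrad, a small GTPase (0.50), were called higher and Gem lower. Arc, the synaptic scaffold gene, had -0.04 with an interval from -0.24 to 0.17, and Homer1 had 0.30 (limma adjusted p = 0.473). The brightest probe set of Homer1, used in the list, had 0.075 (adjusted p = 0.770). Of 43 muscle genes known as MEF2 targets 2 were called: Ppargc1a, a coactivator of mitochondrial biogenesis, which went from 553, 491 and 584 to 739, 619 and 890 (0.44 ± 0.068, adjusted p = 0.00284), and Myl1, a muscle myosin light chain, which at 39 to 69 intensity units stayed near the dim end of the arrays. Ppargc1a was called on 1 of its 3 probe sets, and the lowest had 0.14. Per2 (-0.43, with 0.12 on its second probe set) and Bhlhe41 fell and Bmal1 (0.42) rose among 19 clock genes. Sesn1, a stress-induced sestrin (0.39), was the only call among 16 p53 targets.

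No gene was called by limma in 8 lists, namely glutamate receptors and scaffolds (33 measured), GABA signalling (15), oxidative phosphorylation (42), cholesterol synthesis (22), cell cycle (24), estrogen-responsive genes (22), NF-kappaB and interferon response (36), and RGS and GPCR desensitisation (22). Of these 216 list members 29 had an unadjusted limma p under 0.05, as did 3055 of all 31042 probe sets. Over all genes 1.2% were called higher and 0.556% lower, so the lack of a call does not set a list of this size apart. Hspb1 was the only call among 34 heat shock and unfolded protein genes, and Pcdh10 (higher) and Klf6 (lower) the only ones among 9 neuronal MEF2 targets. Of the 42 oxidative phosphorylation genes 40 had a positive late step, as did 8240 of all 14217 genes. The list's median was 0.11 after an early median of -0.087, which rests on the same 1 h arrays, and its late median in control neurons was -0.022. By replicate number that median was 0.057, 0.22 and 0.053, so replicate 2 carried most of it.

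Several calls in the lists depended on single arrays. Among the called genes given here, 24 lost their call without 2.5 h replicate 3 (adjusted p from 0.0503 to 0.275), 19 without 1 h replicate 1 (0.0516 to 0.174), 16 without 1 h replicate 3 (0.0543 to 0.235), 14 without 1 h replicate 2 (0.0529 to 0.258), 9 without 2.5 h replicate 2 (0.0532 to 0.241) and 8 without 2.5 h replicate 1 (0.0559 to 0.140). The list members concerned were Bambi, Bhlhe41, Bmal1, Bmp2, Cnot6l, Dusp6, Efnb1, Epha7, Gem, Hs3st5, Inhba, Klf6, Neurod6, Nr4a3, Pcdh10, Pcdh17, Per2, Rrad, Sema3e, Sesn1 and Tgfbr1. Cdh10, Sema6a, Epha3, Numb, Elavl2, Ext1, Mef2a, Neurod2, Dusp14, Kcnk2, Ppargc1a and Myl1 kept theirs in all 6 of these fits. With a whole replicate left out, Ext1, Dusp14, Kcnk2 and Myl1 lost theirs without replicate 2 and without replicate 3, Neurod2 without replicate 1 and without replicate 3, and Mef2a and Ppargc1a without replicate 3. Without the replicate block Mef2a, Ext1 (adjusted p = 0.420), Ppargc1a (0.267), Neurod2 (0.221) and Dusp14 (0.0598) also lost theirs.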

How the data were processed

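Total RNA of the 18 cultures had been labelled with biotin and hybridised to Affymetrix rat arrays, and the authors deposited 1 intensity per probe set and array on a linear scale. The sources used here give no summarisation or normalisation step for them. No array was left out or imputed. For the present comparison 57 control probe sets were left out, 16 was added, log2 was taken, and limma 3.58.1 in R 4.3.3 was fitted to the remaining 31042 probe sets of all 18 arrays with 6 group means and the replicate number as a block (10 residual degrees of freedom). A fold change is on this log2(intensity + 16) scale and understates the change of dim probe sets. Calls are Benjamini-Hochberg adjusted p under 0.05 over all probe sets, and every ± after a log2 step is the SE of that fit. Precision is limited by the 3 arrays per group; the median SE of a late step was 0.070.

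The replicate numbers come from the labels. Residuals of same-numbered MEF2-VP16-ER arrays at 1 h and 2.5 h correlated at 0.34, 0.24 and 0.73, and the numbers were taken as pairs. Replicate 2 at 1 h correlated at 0.40 with replicate 1 at 2.5 h, above the same-numbered values of both. Replicate 1 at 1 h with replicate 2 at 2.5 h gave 0.13, and replicate 3 with any other number gave negative values. Residuals were centred within each group of 3 arrays, so a positive value forces a negative one elsewhere. The negative values are thus not separate support for the pairing. At most these correlations set apart replicate 3, but not replicates 1 and 2. Over all 45 same-numbered pairs of the series 44 exceeded 0.1 and the lowest was 0.068.

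GEO's platform annotation gave 1 gene symbol to 20826 probe sets, several to 436 and none to 9780; 20758 of the first were found in the RefSeq table. List counts and medians use the probe set with the highest mean level of each gene, and values of named genes use the probe set with the smallest late adjusted p. Named genes were the 16 largest rises and 16 largest falls called in all 3 replicate numbers, the 8 largest steps of the smaller time-course classes, the 6 largest differences between constructs and control steps in each direction, up to 4 members of each list and 17 fixed genes of MEF2 and activity biology. Adcyap1, Kcna4, Tgfbr1, Efnb1 and Zfp36 lie outside this rule and were chosen after their values were seen. The 32 gene lists hold 750 entries, of which 669 were measured. The comparison, its members and the lists were chosen with earlier results of these data known. Promoters are RefSeq's. Alternatives were other blocks, other sets of arrays, normalisations, pseudocounts, filters and eBayes settings.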

Additional observations from a re-analysis of the deposited data

Results flagged for a closer look

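The late step differed between MEF2-VP16-ER and control neurons, by the test of the difference itself in the limma fit (adjusted p under 0.05), for 124 probe sets, and for 32 of the genes named above. For 13 of the 16 leading risers the difference, MEF2-VP16-ER minus control on the log2 scale, was 1.80 for Col10a1, 1.53 for Pwwp3b, 1.50 for Ptpn21, 1.37 for Fgl2, 1.33 for Mitf and for Man1a1, 1.27 for Opn3, 1.23 for Hspb1, 1.21 for Synpo2, 1.06 for Gask1b, 0.98 for Mlf1, 0.96 for Mat2b and 0.86 for Cdh10. In the other direction it was -1.03 for Gse1, -0.81 for Nin, -0.79 for Runx1t1, -0.78 for Sstr2, -0.57 for Spns2, -0.55 for Fam43b and -0.54 for Irf2bpl.

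Among genes of the lists the difference was 1.24 for Hs3st1, 1.04 for Inhba, 0.78 for Kcna4, 0.71 for Numb, 0.70 for Sema6a, 0.66 for Epha3, 0.64 for Ppargc1a, 0.61 for Elavl2, 0.55 for Ext1, 0.53 for Sema3e, 0.50 for Mef2a and 0.49 for Nr4a3. For Hs3st1, Kcna4, Man1a1, Inhba and Nr4a3 the control neurons moved the other way, by -0.66, -0.49, -0.47, -0.35 and -0.25, so a part of each difference lay in the control arrays. Without single arrays or replicates the number of called differences ran from 16 to 138.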

How the results depend on the processing

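Without the replicate block, that is without pairing the arrays, 88 late steps were called (67 higher, 21 lower) in place of 399, with 0 in control neurons, 13 differences between constructs, 11 early steps and 245 whole changes; 0 probe sets kept rising, 10 rose early with no called late step, 0 decayed, 67 rose late, 21 began to fall and 0 kept falling. With only the groups of each contrast in the fit the counts were 28 (19 higher, 9 lower), 0, 46 and 29 for the late step, the control, the difference and the early step, and 1, 26, 0, 18, 9 and 0 for the same classes; fewer arrays then estimate the spread. Of the called genes named above, only Col10a1, Pwwp3b, Ptpn21, Mitf, Gask1b, Mlf1, Man1a1, Cdh10, Sstr2, Nin, Egr1, Lrig3 and Numb kept their late call there. A block within each construct gave 5 control calls, 3 decaying and 2 that kept falling. Control calls were 0 under quantile normalisation, median centring and a pseudocount of 64, and 5 with trended, robust eBayes. A pseudocount of 1 left 2 that kept falling, and 1 probe set per gene gave 24 with an early rise and no called late step, and 2 decaying. Quantile normalisation left 60.8% of late calls higher, against 67.2%, and leaving out replicate 1 left 56.9%.

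Leaving out a replicate or 1 array gave 107 to 505 late calls (72 to 352 higher, 35 to 153 lower), 0 to 4 control calls, 16 to 138 differences, 15 to 44 early calls and 316 to 729 whole changes. Classes ran from 2 to 10 for keep rising, 12 to 48 for plateau, 0 to 3 for decay, 68 to 343 for late rise, 34 to 146 for begin to fall and 0 to 6 for keep falling. Where a group kept 2 arrays, its spread was taken from all groups. The uncalled late steps of Adamts1 (-0.17 to 0.42), Nfil3 (-0.091 to 0.25), Spry1 (-0.049 to 0.28) and Arc (-0.15 to 0.10) changed sign in some of these fits. Of 68 called genes named above, 43 kept their call in every fit without 1 array and 30 in every fit without a whole replicate. Without the block 23 kept it. The 10 that kept it in every setting and fit were Col10a1, Pwwp3b, Ptpn21, Mitf, Gask1b, Mlf1, Cdh10, Nin, Lrig3 and Numb. Calls lost without a whole replicate included Dhrs7c (replicate 1 or 3), Hs3st1 and Spns2 (2 or 3), Mycn (any), and Cxcr4, Id2 and Kcnk1 (2). The causes of these changes were not tested. With 3 arrays per group, small steps could be missed.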
